A study of Rattus norvegicus with 33 samples.

Results

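The inhibitory receptors of dorsal root ganglia (DRG) were followed in a rat model of spine fusion through 8 genes: the opioid receptors Oprm1, Oprd1, Oprk1 and Oprl1, the cannabinoid receptor Cnr1, and the GABA receptor subunits Gabra2, Gabrg1 and Gabbr1. The genes were chosen by name, by matching the gene symbol of each probe of the Illumina Rat Ref-12 BeadChip, on which 13337 genes carry a symbol. Of the 8 genes, 6 had a probe, with 1 probe each, and Oprk1 and Gabra2 had none under their symbols, so that they were not measured here. DRG RNA was hybridized to 33 arrays from female Sasco/Sprague-Dawley rats, labelled as 13 weeks old, that all underwent the same back surgery. In the rhBMP-2/ACS groups an absorbable collagen sponge (ACS) soaked with recombinant human bone morphogenetic protein-2 was placed beside the lumbar spine on the operated side. In the vehicle/ACS groups the sponge was soaked with vehicle, and in the no sponge groups the same incisions were made without an implant. Each treatment was sampled at 1, 3 and 7 days post-surgery (dps), each group holding 4 rats, except at 3 dps, where it held 3. The 3 treatments share the surgery, and no array of unoperated rats was used here, so that a difference between days is a difference between operated animals.

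Opioid receptors (mu, encoded by Oprm1, delta by Oprd1, kappa by Oprk1 and the nociceptin receptor by Oprl1) and the cannabinoid receptor CB1 (Cnr1) are G protein-coupled receptors of sensory neurons. Through inhibitory G proteins they lower cyclic AMP, close calcium channels and open potassium channels, which reduces transmitter release from pain fibres. GABA acts on sensory neurons through GABA-A receptors, chloride channels built from several subunits such as alpha-2 (Gabra2) and gamma-1 (Gabrg1), and through GABA-B receptors, which need both a GABBR1 and a GABBR2 subunit and couple to the same class of G proteins as opioid receptors.

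Probe values are given as log2 normalised intensity, after background correction and quantile normalization of all arrays together, and a probe was called detected on an array when its detection p-value against negative control beads was under 0.05. The lowest log2 value at which an array detected any probe lay between 4.91 and 5.17. The arrays detected from 10142 to 11674 of 22523 probes, and correlated with each other at 0.971 to 0.996. Before normalization the median intensity of an array ranged from 66.7 to 97.5 at 1 dps, from 111.3 to 143.5 at 3 dps and from 89.1 to 103.6 at 7 dps, and rats were numbered separately at each time point, so that the day after surgery and any difference in handling between days cannot be told apart. The tissue label held against its neuron and satellite glia markers. Of 24 listed neuron genes 18 were detected on all 33 arrays (Scn9a on 5, Calca on none, and 4 without a probe), as were 5 of 9 satellite glia genes. None of 6 astrocyte and oligodendrocyte genes of the central nervous system was, and Olig2 was detected most often, on 10 arrays. Of 8 skeletal muscle genes, Acta1, Ckm, Tnnc2 and Tnnt3 were detected on 33, 32, 28 and 17 arrays, and the others with a probe on 8 or fewer. Mean muscle levels were highest in replicate 3 of rhBMP-2/ACS at 1 dps (7.27) and 7 dps (7.20). The part of muscle RNA in the receptor values was not tested. At 3 dps, replicate 3 had the highest mean log2 level of fibroblast markers in both sponge groups, at 10.77 against 9.64 and 10.01 in rhBMP-2/ACS and at 9.64 against 8.51 and 8.80 in vehicle/ACS rats. It also had the highest mean level of macrophage markers, at 7.87 against 7.22 and 7.47 in rhBMP-2/ACS and at 6.85 against 6.10 and 6.39 in vehicle/ACS rats. Without replicate 3 of rhBMP-2/ACS the probes called different between rhBMP-2/ACS and vehicle/ACS at 3 dps numbered 238 (1.97%), compared with 1268 (10.5% of the 12029 tested) with all arrays, 606 (5.02%) without replicate 2 of vehicle/ACS and 1124 (9.31%) without replicate 3 of vehicle/ACS.

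Detection separated the 6 probes. Oprl1 and Gabbr1 were detected on 33 of 33 arrays and Gabrg1 on 30. Oprm1 was detected on 17 arrays, 10 of 12 at 1 dps, 3 of 9 at 3 dps and 4 of 12 at 7 dps. Cnr1 was detected on 11 arrays, 4 of 12, 1 of 9 and 6 of 12, and it passed the filter for testing (a group in which 75% or more of the arrays detected the probe) only through vehicle/ACS rats at 7 dps, where 3 of 4 arrays detected it. Oprd1, detected on 7 arrays, did not pass in any group, and it was not tested. Thus 5 of the 8 genes were tested with the 12029 probes kept, and for Oprm1, Cnr1 and Oprd1 many values lie at the background of the array, where a difference is compressed. Each value stands for whole ganglia, in which fewer cells of a type and less RNA per cell cannot be told apart.

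**Figure D1:**
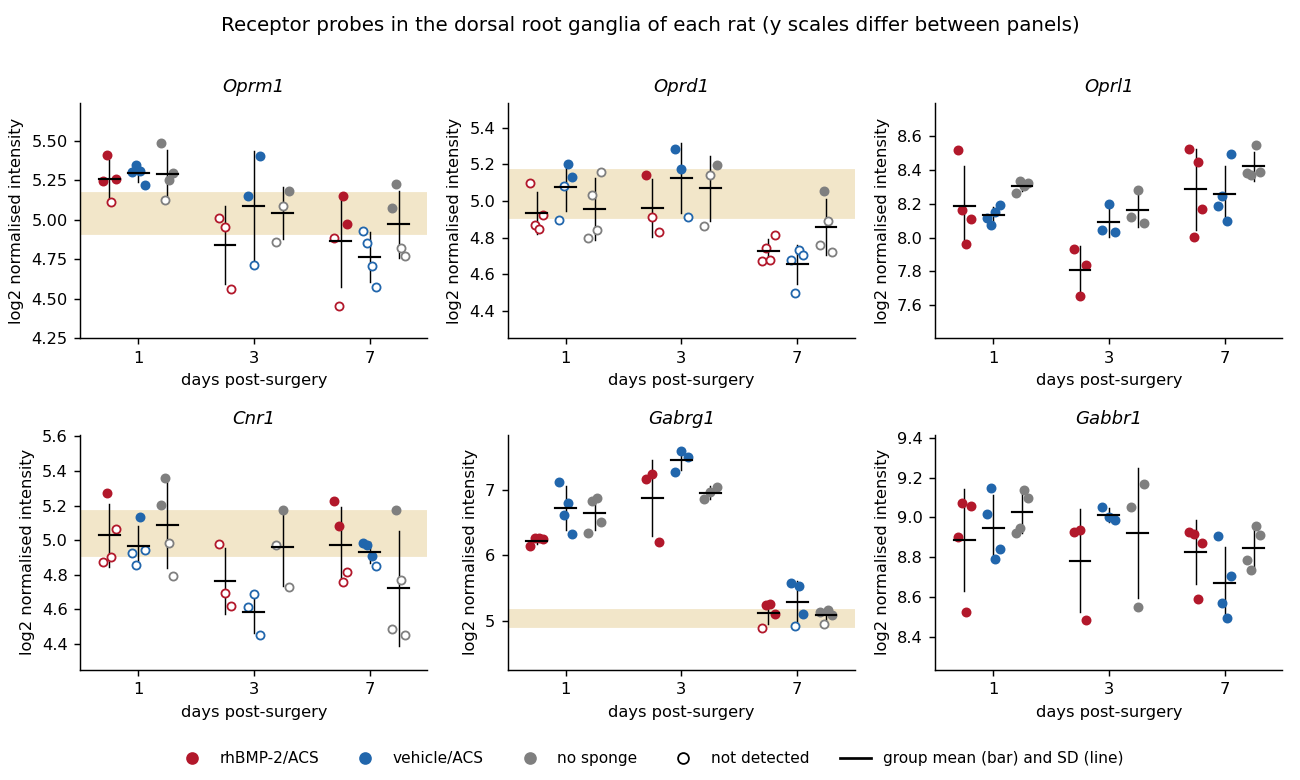
Log2 normalised intensity (y axis) of the 6 receptor probes against days post-surgery (x axis), with 1 point per rat in rhBMP-2/ACS, vehicle/ACS and no sponge groups. Filled points were detected and open points were not, bars are group means, vertical lines are SD (n = 3 or 4), and the band spans the lowest detected level of the arrays, 4.91 to 5.17. Gabrg1 lies between 4.89 and 5.58 at 7 dps, below every array of 1 and 3 dps, while Oprl1 and Gabbr1 stay above the band on all arrays.

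The promoter windows of both GABA receptor genes measured are shown because Gabrg1 had the largest differences between days of the 5 receptor genes tested and Gabbr1 the smallest shift from 1 to 3 dps. They run from 250 bases before to 50 bases after the annotated start in RefSeq (build GRCr8), which holds such a window for 4 of the 8 genes (Oprm1, Oprd1, Gabrg1 and Gabbr1). The Gabrg1 window (chr14:37750042-37750341, plus strand) is 48.7% G or C with 6 CpG dinucleotides, where the median promoter of 33469 has 51.7% and 7. It holds 2 matches to CCAAT, both on the reverse strand as ATTGG (capitals), and 37.5% of promoters hold this motif on either strand.
Gabrg1: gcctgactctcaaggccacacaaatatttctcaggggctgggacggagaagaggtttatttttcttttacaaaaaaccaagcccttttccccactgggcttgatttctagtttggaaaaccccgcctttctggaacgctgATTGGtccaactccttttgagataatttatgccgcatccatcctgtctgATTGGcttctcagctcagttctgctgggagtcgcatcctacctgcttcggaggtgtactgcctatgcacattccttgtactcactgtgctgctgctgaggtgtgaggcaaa
The Gabbr1 window (chr20:1499187-1499486, minus strand) is 75% G or C with 32 CpG dinucleotides, more than all but 7.53% of promoters. It holds 4 matches to GGGCGG or its reverse complement CCGCCC (capitals), a motif found in 33.1% of promoters, and no CCAAT.
Gabbr1: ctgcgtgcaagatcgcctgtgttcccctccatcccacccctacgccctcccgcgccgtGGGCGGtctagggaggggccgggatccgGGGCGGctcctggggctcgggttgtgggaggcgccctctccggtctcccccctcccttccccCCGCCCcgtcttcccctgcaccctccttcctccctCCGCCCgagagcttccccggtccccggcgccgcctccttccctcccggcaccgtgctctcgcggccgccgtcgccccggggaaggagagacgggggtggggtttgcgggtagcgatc
Neither window holds TATAAA on either strand, which 14.2% of promoters do. These matches describe letters in the windows, and no binding was measured.

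To determine whether rhBMP-2 changed the receptor genes beyond the sponge that carried it, rhBMP-2/ACS was compared with vehicle/ACS at each time point. None of the 5 genes tested passed an adjusted p of 0.05 at 1, 3 or 7 dps (limma, Benjamini-Hochberg over 12029 probes), where 0%, 10.5% and 0% of all probes did. The closest was Gabrg1 at 3 dps, 1.5-fold lower in rhBMP-2/ACS rats. At 3 dps 4 of the 5 genes had values on the lower side and Cnr1 on the higher, with a median difference of -0.25 against -0.03 over all probes. At an unadjusted p under 0.05 there was 1 of the 5 genes at 1 dps (456 of all probes), 2 at 3 dps (3129) and 0 at 7 dps (777).

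Gabrg1, the gamma-1 subunit of GABA-A receptors, had log2 intensities of 7.17, 7.23 and 6.20 in rhBMP-2/ACS rats at 3 dps, against 7.28, 7.59 and 7.50 in vehicle/ACS rats. The groups did not overlap, as was so for 22.8% of all probes in this comparison, and the distance rested on replicate 3 of rhBMP-2/ACS, since the other values of that group lay just under the lowest vehicle value. The difference was -0.59 (SE 0.208, 95% confidence interval -1.01 to -0.163, adjusted p = 0.0657), and without that array it was -0.26 (adjusted p = 0.541). Without replicate 1 or replicate 2 of rhBMP-2/ACS it was -0.74 and -0.77 and passed (adjusted p = 0.0287 and 0.0277). At 1 dps the values were 6.13, 6.25, 6.26 and 6.25 in rhBMP-2/ACS rats and 7.12, 6.61, 6.79 and 6.33 in vehicle/ACS rats. Again the groups did not overlap (2.78% of all probes), and the rhBMP-2/ACS values were close together while the vehicle values were spread. The difference was -0.49 (SE 0.180, interval -0.859 to -0.123), with an unadjusted p of 0.0106 and an adjusted p of 0.999. At 7 dps both groups were near background, at 4.89 to 5.25 in rhBMP-2/ACS and 4.92 to 5.58 in vehicle/ACS rats, and overlapped (difference -0.16, adjusted p = 0.914).

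At 3 dps, markers of other cells moved in the same comparison. Of 9 macrophage genes tested 6 rose in rhBMP-2/ACS rats (median 1.05), with array levels of 7.22 to 7.87 in rhBMP-2/ACS and 6.10 to 6.85 in vehicle/ACS rats, and 7 of 8 fibroblast genes rose (median 0.92), with levels of 9.64 to 10.77 in rhBMP-2/ACS and 8.51 to 9.64 in vehicle/ACS rats. Of 19 neuron genes 4 fell (median -0.16), with levels of 10.77 to 10.94 in rhBMP-2/ACS and 10.95 to 11.07 in vehicle/ACS rats, and 0 of 5 satellite glia genes was called. All 8 fibroblast and 5 of the 9 macrophage genes were detected on every array, and Cd163 and Cybb were the least often detected, on 11 and 12 arrays. Their part in the receptor values was not tested.

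Oprl1, the nociceptin receptor, had log2 intensities of 7.93, 7.66 and 7.84 in rhBMP-2/ACS rats at 3 dps, against 8.05, 8.20 and 8.03 in vehicle/ACS rats. All 3 rhBMP-2/ACS values lay below the vehicle values, the highest by a small step. The difference was -0.28 (SE 0.122, interval -0.533 to -0.0367, adjusted p = 0.131), and it was -0.30 without replicate 3 of rhBMP-2/ACS (adjusted p = 0.268). At 1 dps Oprl1 overlapped, at 7.96 to 8.52 in rhBMP-2/ACS rats and 8.08 to 8.19 in vehicle/ACS rats, and likewise at 7 dps, at 8.00 to 8.52 in rhBMP-2/ACS and 8.10 to 8.49 in vehicle/ACS rats.

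Oprm1, the mu receptor through which morphine acts, was not detected on any of the 3 rhBMP-2/ACS arrays at 3 dps (5.01, 4.96 and 4.56) and was detected on 2 of 3 vehicle/ACS arrays (5.15, 4.72 and 5.40). The vehicle/ACS mean of 5.09 includes an undetected array and lies within the lowest detected levels of the arrays (4.91 to 5.17), so that no fold is given. The interval of the fitted difference allowed either sign (-0.25, interval -0.581 to 0.0877, adjusted p = 0.36). At 1 dps the values were 5.11 to 5.41 in rhBMP-2/ACS and 5.22 to 5.34 in vehicle/ACS rats, and at 7 dps 4.46 to 5.15 in rhBMP-2/ACS and 4.57 to 4.93 in vehicle/ACS rats, with overlap each time. Oprd1, the delta receptor, was detected on 0 of 4, 1 of 3 and 0 of 4 rhBMP-2/ACS arrays at 1, 3 and 7 dps and on 2 of 4, 2 of 3 and 0 of 4 vehicle/ACS arrays, so that no level is compared.

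Cnr1, which encodes CB1, had values of 4.98, 4.70 and 4.62 in rhBMP-2/ACS rats at 3 dps and 4.61, 4.69 and 4.45 in vehicle/ACS rats. None of these 6 arrays detected the probe. At 7 dps the values were 5.23, 5.08, 4.76 and 4.81 in rhBMP-2/ACS rats and 4.99, 4.97, 4.91 and 4.85 in vehicle/ACS rats, the vehicle values falling inside the range of the rhBMP-2/ACS values (difference 0.04, interval -0.249 to 0.332).

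Gabbr1, the subunit of the GABA-B receptor that binds GABA, had log2 intensities of 8.93, 8.94 and 8.48 in rhBMP-2/ACS rats at 3 dps, against 9.05, 9.00 and 8.99 in vehicle/ACS rats. The groups did not overlap, but 2 of the 3 rhBMP-2/ACS values lay close under the vehicle values and replicate 3 was far below them. The difference was -0.23 (SE 0.147, interval -0.530 to 0.0686, adjusted p = 0.332) and -0.08 without that array (adjusted p = 0.849). At 1 and 7 dps the differences were -0.06 and 0.16, with overlap.

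Whether the difference between rhBMP-2/ACS and vehicle/ACS itself changed with the day was tested for the 5 genes. No change passed, with a lowest adjusted p of 0.301 from 1 to 3 dps, where 1.16% of all probes passed, and 0.242 from 3 to 7 dps, where 6.9% did. For Gabrg1 the change was 0.43 from 3 to 7 dps (interval -0.135 to 0.989, adjusted p = 0.384).

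The rhBMP-2/ACS rats were also set against rats with surgery alone, a comparison that holds sponge and growth factor together. None of the 5 genes passed at 1, 3 or 7 dps, where 0%, 7.55% and 3.63% of all probes did. The share at 3 dps was 1.18% without replicate 3 of rhBMP-2/ACS, and 2.98% and 3.38% without replicates 1 and 2 of no sponge. Oprl1 at 3 dps was the nearest, 1.28-fold lower in rhBMP-2/ACS rats, whose values of 7.93, 7.66 and 7.84 lay below the 8.12, 8.28 and 8.09 of no sponge rats without overlap (22.3% of all probes). This difference was -0.36 (SE 0.122, interval -0.606 to -0.109, adjusted p = 0.0664), and -0.37 without replicate 3 of rhBMP-2/ACS (adjusted p = 0.179). It passed only without replicate 1 of rhBMP-2/ACS (-0.42, adjusted p = 0.0432). In this comparison 6 of 9 macrophage and 3 of 8 fibroblast genes rose and 3 of 19 neuron genes fell, and their part was not tested. For Gabrg1 the rhBMP-2/ACS and no sponge groups did not overlap at 1 dps, with 6.13 to 6.26 in rhBMP-2/ACS rats and 6.34 to 6.88 in no sponge rats (difference -0.41, adjusted p = 0.773, 4.19% of all probes without overlap). At 3 dps they did overlap, with 6.85, 6.96 and 7.05 in no sponge rats lying between the low value and the 2 higher values of rhBMP-2/ACS rats (difference -0.09, adjusted p = 0.846). Without replicate 3 of rhBMP-2/ACS this difference was 0.25 (adjusted p = 0.561).

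Vehicle/ACS was compared with no sponge to see what the collagen sponge added to surgery. None of the 5 genes passed at 1, 3 or 7 dps, where 0%, 0.341% and 10.2% of all probes did. Gabrg1 at 3 dps was higher by value, at 7.28, 7.59 and 7.50 in vehicle/ACS rats against 6.85, 6.96 and 7.05 in no sponge rats. The groups did not overlap, as was so for 14.9% of all probes here, and the difference of 0.50 (SE 0.208, interval 0.0768 to 0.926) had an adjusted p of 0.276. Cnr1 at 3 dps did not overlap either, with 4.61, 4.69 and 4.45 in vehicle/ACS rats and 4.97, 5.17 and 4.73 in no sponge rats. It was detected on 0 of 3 vehicle/ACS and 1 of 3 no sponge arrays, so that no fold is given (difference -0.37, adjusted p = 0.302). Oprl1 at 1 dps was 8.08 to 8.19 in vehicle/ACS rats and 8.26 to 8.33 in no sponge rats, a narrow gap without overlap (2.61% of all probes) and a difference of -0.17 (adjusted p = 1.00). Oprm1 was detected on 0 of 4 vehicle/ACS arrays at 7 dps and on 2 of 4 no sponge arrays. The no sponge mean of 4.97 includes undetected arrays and lies within the lowest detected levels of the arrays (4.91 to 5.17), so that no fold is given. The interval of the fitted difference allowed either sign (-0.21, interval -0.495 to 0.0837, adjusted p = 0.394).

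Over the 9 comparisons of treatments and 5 genes, 45 in all, 0 passed in limma and 7 had an unadjusted p under 0.05. The 95% confidence intervals reached at most from -1.01 to 0.926, both for Gabrg1 at 3 dps. A p that misses the threshold does not show that the treatments had equal levels.

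**Figure D2:**
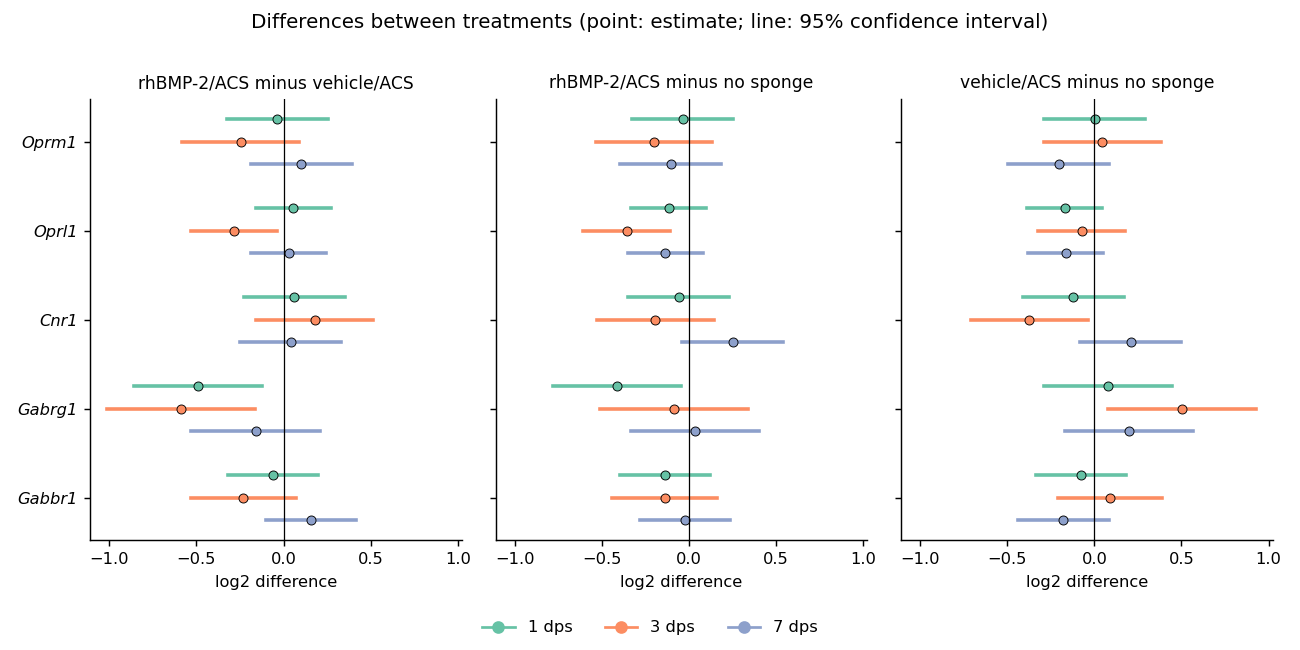
Log2 differences between treatments (x axis) for the 5 receptor genes tested (y axis), 1 panel per comparison and 1 colour per day. Points are limma estimates and lines 95% confidence intervals over groups of 3 or 4 rats. Most intervals include 0, and those that do not, such as Gabrg1 at 3 dps in rhBMP-2/ACS minus vehicle/ACS (-1.01 to -0.163), did not pass after adjustment.

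Between days, receptor genes passed the test. With the 3 treatments averaged, Gabrg1 was higher at 3 dps than at 1 dps and then 3.81-fold lower at 7 dps than at 3 dps. Oprm1, detected mainly at 1 dps, was lower at 3 and 7 dps than at 1 dps, and Oprl1 was lowest at 3 dps. Since Oprm1 passed the detection filter only through the groups of 1 dps, its calls counted here do not stand as support. Of the 5 genes 4 passed between 3 and 1 dps (Gabrg1 higher, and Oprm1, Oprl1 and Cnr1 lower), 3 between 7 and 1 dps (Gabrg1, Oprm1 and Gabbr1, all lower) and 2 between 7 and 3 dps (Gabrg1 lower and Oprl1 higher). Of the 12029 probes tested 53.7% passed between 3 and 1 dps (27.4% higher, 26.3% lower) and 68.4% between 7 and 1 dps (36.1% higher, 32.4% lower). Between 7 and 3 dps 58.7% passed (33% higher, 25.7% lower), so that most of the probes tested also differed between days.

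Gabrg1 had mean log2 intensities over the treatments of 6.53 at 1 dps, 7.09 at 3 dps and 5.16 at 7 dps. Single arrays ran from 6.13 to 7.12 (median 6.42) at 1 dps, from 6.20 to 7.59 (median 7.17) at 3 dps and from 4.89 to 5.58 (median 5.12) at 7 dps, when 9 of 12 arrays still detected the probe. All 12 arrays of 7 dps lay below all arrays of the earlier days, while 1 and 3 dps overlapped. Here and below, the share of all probes without overlap between days was not counted, so that such a separation is description only. Against 3 dps, the values of 7 dps were lower by a log2 difference of -1.93 (SE 0.112, adjusted p = 5.453e-15), and 10 of 12029 probes fell further. Against 1 dps they were lower by -1.36 (2.57-fold, SE 0.104, adjusted p = 2.2e-12), and 49 probes fell further. The 7 dps values lie near background, where the size of a difference is compressed. The difference of 3 dps from 1 dps was 0.57 (SE 0.112, adjusted p = 9.395e-05), with 337 probes rising more.

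The fall between 3 and 7 dps was seen in each treatment. It was 3.36-fold in rhBMP-2/ACS rats (log2 -1.75, adjusted p = 3.81e-08), 4.51-fold in vehicle/ACS rats (-2.17, adjusted p = 4.92e-10) and 3.66-fold in no sponge rats (-1.87, adjusted p = 1.421e-08), without overlap in any of them. In these within-treatment comparisons 40.9%, 41% and 29.5% of all probes passed. The earlier rise passed in rhBMP-2/ACS (0.64, adjusted p = 0.0112) and vehicle/ACS rats (0.74, adjusted p = 0.00345), and was 0.32 in no sponge rats (adjusted p = 0.257), a difference between treatments that was not tested against no sponge. For within-treatment comparisons with 1 dps, here and below, the share of all probes that passed was not counted, so that such calls are description only. Before correction and normalization the intensity of the Gabrg1 probe ran from 108.4 to 225.4 at 1 dps, from 196 to 293.6 at 3 dps and from 89.6 to 115.5 at 7 dps, and the array medians given above were also highest at 3 dps. Under the other settings tried the 7 dps minus 3 dps difference stayed between -2.47 and -1.29. Of 5 satellite glia genes 4 fell between 3 and 7 dps (median -0.28, array levels 9.99 to 10.37 at 3 dps and 9.66 to 10.17 at 7 dps), while of 19 neuron genes 8 rose and 4 fell (median 0.08, levels 10.77 to 11.11 at 3 dps and 10.91 to 11.11 at 7 dps). Their part in the Gabrg1 values was not tested.

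Oprm1 had array values from 5.11 to 5.49 (median 5.28) at 1 dps, 4.56 to 5.40 (median 5.01) at 3 dps and 4.46 to 5.22 (median 4.87) at 7 dps. Most arrays of 1 dps stood above those of the later days, with some overlap. The differences were -0.29 for 3 dps minus 1 dps (SE 0.0884, adjusted p = 0.0068), -0.41 for 7 dps minus 1 dps (SE 0.0819, adjusted p = 5.957e-05) and -0.12 for 7 dps minus 3 dps (adjusted p = 0.232). Only 3 of 9 and 4 of 12 arrays detected the probe at 3 and 7 dps, so that many of these values lie at background, and Oprm1 passed the detection filter only through the 3 groups of 1 dps, where it is highest. Its calls against 1 dps therefore do not stand as support. In the fit without the filter the adjusted p was 0.011 for 3 dps minus 1 dps and 8.582e-05 for 7 dps minus 1 dps. The uncorrected intensity of the probe was 73.3 to 127.2, 110.6 to 140.4 and 81.6 to 105 at the successive days, that is, not lower at 3 dps, when array medians were also higher. Within treatments, the 7 dps minus 1 dps difference passed in rhBMP-2/ACS (-0.39, adjusted p = 0.0273) and vehicle/ACS rats (-0.53, adjusted p = 0.00314) and was -0.32 in no sponge rats (adjusted p = 0.0615).

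Oprl1 had array values from 7.96 to 8.52 (median 8.18) at 1 dps, 7.66 to 8.28 (median 8.05) at 3 dps and 8.00 to 8.54 (median 8.37) at 7 dps, with overlap of all days. It was higher at 7 dps than at 3 dps by 0.30 (SE 0.0657, adjusted p = 0.000274) and lower at 3 dps than at 1 dps by a difference of -0.19 (adjusted p = 0.0169), which with arrays scaled to equal medians was -0.13 (adjusted p = 0.213). Of 19 neuron genes 9 were lower and 2 higher at 3 dps than at 1 dps (median -0.13, array levels from 10.77 to 11.11 at 3 dps and from 11.00 to 11.18 at 1 dps), and their part in the Oprl1 and Oprm1 values was not tested. Within treatments this pattern passed in rhBMP-2/ACS rats, at 0.48 for 7 dps minus 3 dps (adjusted p = 0.00129) and -0.38 for 3 dps minus 1 dps (adjusted p = 0.0101). The matching values were 0.16 and -0.04 in vehicle/ACS rats and 0.26 and -0.14 in no sponge rats, and the difference from vehicle/ACS was tested above and did not pass, while that from no sponge was not tested. Cnr1 was lower at 3 dps than at 1 dps by a difference of -0.26 (adjusted p = 0.0152), with 1 of 9 arrays detecting it at 3 dps and 4 of 12 at 1 dps, and with the authors' normalized values this was -0.07 (adjusted p = 0.245). Gabbr1 was lower at 7 dps than at 1 dps by a difference of -0.17 (adjusted p = 0.0373), a call lost in 11 of the fits that left out a single array. Oprd1 was detected on 4 of 9 arrays at 3 dps and 1 of 12 at 7 dps, so that no difference between days is given.

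Genes that supply or transmit the signals of these receptors were taken from lists of 92 other genes, of which 73 had a probe and 51 passed the detection filter. Between rhBMP-2/ACS and vehicle/ACS at 3 dps 7 of the 51 passed (13.7%, against 10.5% of all probes), 3 higher (5.98% of all probes) and 4 lower (4.56%). All of these calls were lost without replicate 3 of rhBMP-2/ACS, and none of the 7 passed when the 6 arrays compared were fitted by themselves, a fit that leaves the differences as they are. Without replicate 3 some differences kept most of their size, such as -0.33 for Gnb1 and -0.35 for Dpp3, and others were smaller, such as 0.52 for Anpep and 0.23 for Ece1. Abat, the transaminase that breaks down GABA, was at 5.49, 5.64 and 5.13 in rhBMP-2/ACS rats and 6.40, 6.12 and 5.70 in vehicle/ACS rats. All rhBMP-2/ACS values lay below the vehicle values, a 1.57-fold lower level (log2 -0.65, SE 0.155, adjusted p = 0.00697). Among opioid peptide genes and the enzymes that process or degrade them, 3 of 9 passed: the aminopeptidase Anpep (0.82, adjusted p = 0.0460) and the endothelin-converting enzyme Ece1 (0.38, adjusted p = 0.0314) rose, and the dipeptidyl peptidase Dpp3 (-0.38, adjusted p = 0.0154) fell. The peptide precursors Penk, Pdyn, Pomc and Pnoc did not pass. Of 23 genes of G protein coupling and desensitization 3 passed, with the inhibitory alpha subunit Gnai3 higher (0.31, adjusted p = 0.0130) and the beta subunit Gnb1 (-0.34, adjusted p = 0.00733) and the regulator of G protein signalling Rgs9 lower. Rgs9 was not detected on any rhBMP-2/ACS array and was at least 1.13-fold higher in vehicle/ACS rats (adjusted p = 0.0383). At 3 dps Rgs9 passed the detection filter only through vehicle/ACS, where it is highest, so that this call does not stand as support. None of the 3 GABA-A and 2 GABA-B receptor subunits, 5 endocannabinoid genes or 5 receptor trafficking genes passed. The 51 genes had a median of -0.12, beside -0.03 over all probes. At 1 and 7 dps 0 of 51 passed.

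**Figure D3:**
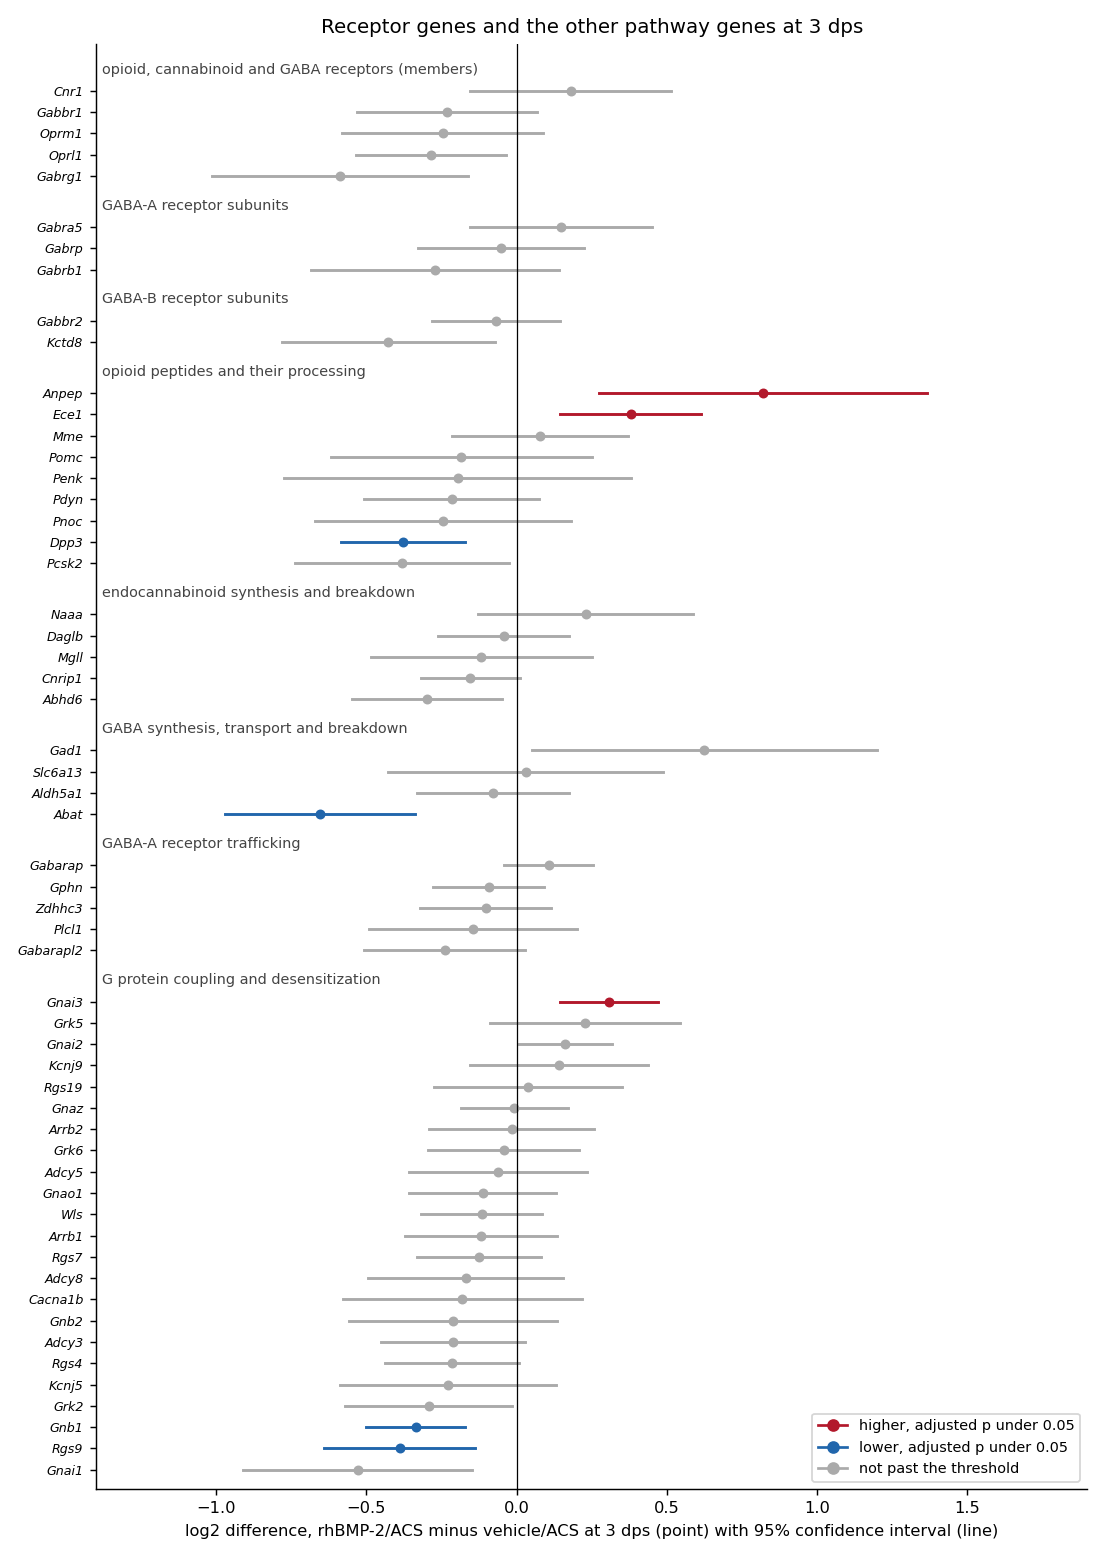
Log2 difference, rhBMP-2/ACS minus vehicle/ACS at 3 dps (x axis), for the 5 receptor genes and the 51 other pathway genes (y axis, by list). Points are limma estimates from 3 rats per group, lines are 95% confidence intervals, and colour marks an adjusted p under 0.05. The receptor genes at the top are all grey, and of the other genes 3 are coloured as higher and 4 as lower.

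Against no sponge, 4 of 51 genes passed in rhBMP-2/ACS rats at 3 dps (7.84%, against 7.55% of all probes). Abat was lower there too, with 6.02, 6.11 and 6.17 in no sponge rats (log2 -0.68, adjusted p = 0.00753), Ece1 was higher (0.44, adjusted p = 0.0180) and the adenylyl cyclase Adcy5 was lower (-0.47, adjusted p = 0.0413). Gabra5, the alpha-5 subunit of GABA-A receptors, was at 6.91, 7.11 and 7.35 in rhBMP-2/ACS rats and 6.56, 6.52 and 6.84 in no sponge rats, the lowest rhBMP-2/ACS value just above the highest no sponge value (0.49, adjusted p = 0.0405). None of the 4 calls was made without replicate 3 of rhBMP-2/ACS, or when the 6 arrays compared were fitted by themselves. At 7 dps, where no source used here states that each no sponge array is a separate rat, 2 of 51 passed in rhBMP-2/ACS (3.92%, against 3.63% of all probes) and 4 of 51 in vehicle/ACS rats (7.84%, against 10.2%), and the no sponge rats are shared by both comparisons. Kcnj5, a subunit of the potassium channels that inhibitory G proteins open, was at 4.86, 4.55, 4.66 and 5.31 in rhBMP-2/ACS rats, at 4.89, 4.57, 4.86 and 4.96 in vehicle/ACS rats and at 5.64, 5.60, 5.54 and 5.54 in no sponge rats. It was detected on 1 of 4 arrays in each sponge group, whose values lie at background, and on all 4 no sponge arrays. No sponge at 7 dps was the only group through which Kcnj5 passed the detection filter, so that its 2 calls counted here do not stand as support. In the fit without the filter the differences from no sponge were -0.74 in rhBMP-2/ACS (adjusted p = 0.00511) and -0.76 in vehicle/ACS rats (adjusted p = 0.00146). Rgs4, a regulator of G protein signalling, was at 12.67 to 12.80 in rhBMP-2/ACS and 12.38 to 12.89 in vehicle/ACS rats, below the 13.06 to 13.12 of no sponge rats (-0.34 and -0.46, adjusted p = 0.0368 and 0.00155). Mme, the enkephalin-degrading neprilysin, was higher (0.50, adjusted p = 0.00812) and Rgs7 lower (-0.27, adjusted p = 0.0480) in vehicle/ACS rats. With an array left out, Rgs4 in rhBMP-2/ACS and Rgs7 in vehicle/ACS no longer passed in 7 and 6 of 8 fits. At 7 dps 6 of 9 macrophage genes (median 1.05) and 7 of 8 fibroblast genes (median 1.05) were also higher in vehicle/ACS than in no sponge rats and 2 of 19 neuron genes lower, and their part was not tested.

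Over the days, 33 of 51 pathway genes passed between 3 and 1 dps (64.7%, against 53.7% of all probes), 33 between 7 and 1 dps (64.7%, against 68.4%) and 24 between 7 and 3 dps (47.1%, against 58.7%). The partners of Gabbr1 shared the 3 dps peak of Gabrg1. Gabbr2, which pairs with Gabbr1 in the GABA-B receptor, ran from 10.76 to 11.26 at 1 dps, from 11.33 to 11.58 at 3 dps and from 10.73 to 11.15 at 7 dps, the 3 dps arrays lying above all arrays of the other days. Its differences were 0.44 for 3 dps minus 1 dps (adjusted p = 1.121e-07) and -0.50 for 7 dps minus 3 dps (adjusted p = 1.016e-08). The auxiliary GABA-B subunit Kctd8 followed the same course (0.70 and -0.61), as did Gabra5 (0.36 and -0.50). The other GABA-A subunits above the filter took other courses. Gabrb1 was higher at 7 dps than at 1 dps (0.43, adjusted p = 0.000384), but only 5 of 12 arrays detected it at 1 dps. It passed the detection filter only through groups of 3 and 7 dps, so that this call does not stand as support. Gabrp was lower at 3 and 7 dps than at 1 dps (-0.29 and -0.41), with 3 of 9 and 3 of 12 arrays detecting it.

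**Figure D4:**
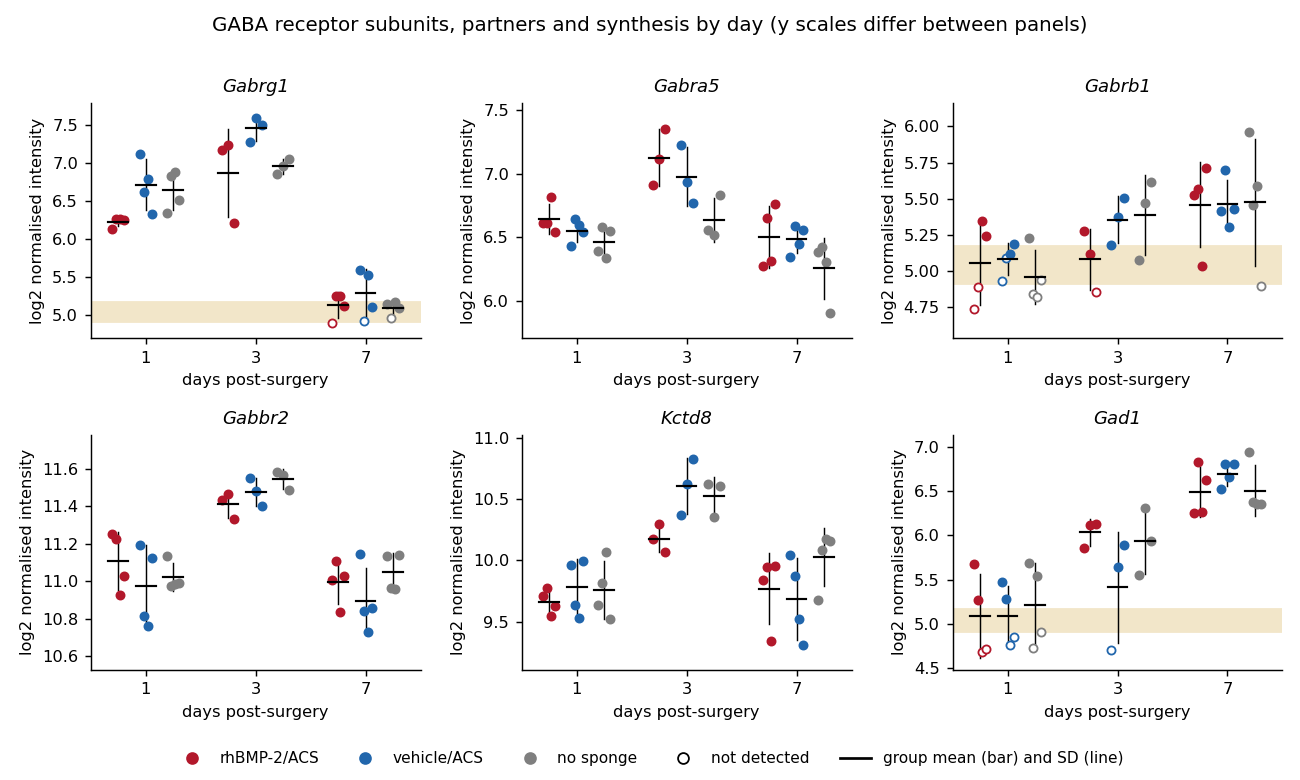
Log2 normalised intensity (y axis) of 6 genes of the GABA system against days post-surgery (x axis), with 1 point per rat in rhBMP-2/ACS, vehicle/ACS and no sponge groups. Filled points were detected and open points were not, bars are group means, lines SD (n = 3 or 4) and the band the lowest detected level of the arrays. Gabrg1, Gabra5, Gabbr2 and Kctd8 have their highest means at 3 dps, and Gad1 has its lowest values at 1 dps and lies between 6.25 and 6.94 at 7 dps.

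The 4 genes that make, transport and break down GABA differed in course, with 2 higher and 2 lower at 7 dps than at 1 dps. Gad1, which synthesizes GABA, was at 4.68 to 5.69 at 1 dps (6 of 12 arrays detected), 4.70 to 6.31 at 3 dps (8 of 9) and 6.25 to 6.94 at 7 dps (12 of 12). All 7 dps values lay above all 1 dps values, a 2.71-fold higher level (1.44, adjusted p = 4.032e-10). Gad1 passed the detection filter only through groups of 3 and 7 dps, so that this call does not stand as support. Many of its 1 dps values lie at background. The GABA transporter Slc6a13 was not detected on any array at 1 or 3 dps and was detected on 10 of 12 at 7 dps, at least 1.32-fold higher than at 3 dps. It passed the detection filter only through the groups of 7 dps, so that its calls do not stand as support (adjusted p = 7.987e-08 in the fit without the filter). Abat and Aldh5a1, which degrade GABA, were lower at 3 dps than at 1 dps (-0.46 and -0.30). Of 9 opioid peptide and processing genes 4 were lower at 3 dps than at 1 dps (44.4%, against 26.3% of all probes) and 6 higher at 7 dps than at 3 dps (66.7%, against 33%). Of these genes, Pdyn and Mme passed the detection filter only through the groups of 7 dps, and Pnoc passed through no group of 3 dps. The counts of this list therefore do not stand as support. Pomc, the precursor of beta-endorphin, was at 5.50 to 6.27, 4.91 to 6.07 and 5.71 to 6.48 at the successive days, with differences of -0.66 and 0.72 (adjusted p = 1.92e-05 and 3.791e-06). Pnoc, the precursor of the ligand of Oprl1, had differences of -0.28 and 0.50 (adjusted p = 0.0397 and 0.000368), that is, a low point at 3 dps. It was detected on 9 of 12, 5 of 9 and 12 of 12 arrays at the successive days. Values of that low point therefore lie partly at background, and these calls do not stand as support. Pdyn, the precursor of dynorphins, was detected on 0 of 12, 1 of 9 and 11 of 12 arrays, passed the filter only through the groups of 7 dps, and was at least 1.07-fold higher at 7 dps than at 1 dps.

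Of 5 endocannabinoid genes 4 passed between 3 and 1 dps (80%, against 53.7% of all probes). Daglb, which makes 2-arachidonoylglycerol, Naaa, which hydrolyses N-acylethanolamines, and Cnrip1, whose product binds CB1, were higher at 3 dps (0.22, 0.34 and 0.34), and Mgll, which breaks 2-arachidonoylglycerol down, was lower (-0.35). Among 23 G protein genes 16 passed between 3 and 1 dps (69.6%, against 53.7% of all probes, with 7 higher and 9 lower). Between 7 and 1 dps 18 passed (78.3%, against 68.4%, with 7 higher and 11 lower), and between 7 and 3 dps 10 (43.5%, against 58.7%, with 4 higher and 6 lower). Grk2, the kinase that desensitizes opioid receptors, was higher at 7 dps than at 1 dps (0.79, adjusted p = 3.112e-11), while the inhibitory alpha subunits Gnai1 and Gnai2 were lower (-0.50 and -0.43). Gnai1 was also higher at 3 dps than at 1 dps (0.40) and lower at 7 dps than at 3 dps (-0.90, adjusted p = 8.084e-09). Its probe was detected on 8 of 12, 8 of 9 and 6 of 12 arrays at the successive days. Many of its 7 dps values (4.52 to 5.22) thus lie at background. Gabarap, which carries GABA-A receptors to the membrane, was lowest at 3 dps (-0.43 against 1 dps, and 0.47 for 7 dps minus 3 dps).

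The genes whose log2 values ran most like each receptor gene over the 33 arrays were described by Pearson's r, with the same arrays, days and normalization shared by both. For Gabrg1 these were Gdap1 (r = 0.97), Tmem255a (0.969) and Slmap (0.966), and within groups, with each group mean subtracted, r was 0.671, 0.602 and 0.582. For Oprl1 they were Coro2a (0.815), Elmo1 (0.811) and Nacc2 (0.79), for Gabbr1 Nub1 (0.715), Hey2 (0.654) and Nsf (0.648), for Oprm1 Grip2 (0.777), Ndufa10 (0.766) and Higd2a (0.753), and for Cnr1 Mtdh (0.704), Tanc2 (0.638) and Hcfc1r1 (0.61). Within groups, in the same order, r was 0.72, 0.509 and 0.646 for Oprl1 and 0.732, 0.667 and 0.705 for Gabbr1. It was 0.549, 0.369 and 0.42 for Oprm1 and 0.612, 0.502 and 0.579 for Cnr1.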

How the data were processed

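RNA of L4 and L5 DRG was labelled and hybridized by the authors to the Illumina Rat Ref-12 BeadChip, with each array taken as 1 rat, which the sources used here do not state for no sponge at 7 dps (the labelling protocol in the labels names a mouse chip). Mean bead intensities of 22523 probes on 33 arrays were deposited as GenomeStudio gave them, without normalization, each with a detection p-value against negative control beads, as deposited by the authors. Their own table of background-corrected, quantile-normalized values served as an alternative. Of the 22523 probes, 13793 carry 1 gene symbol in the platform annotation, 8730 none and 0 several.

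Intensities were corrected with limma's neqc (offset 16, with control beads estimated from detection p), quantile normalized and taken to log2. A probe was kept where 75% or more of the arrays of a group detected it (p under 0.05), 12029 in all, of which 8691 carry a symbol, for 8526 genes. Groups were taken from the labels. Linear models were fitted to the 9 groups with limma 3.58.1 in R 4.3.3 (lmFit, then eBayes with an intensity trend), giving 14 comparisons: treatments within each day, days over the mean of the 3 treatments, and the change of rhBMP-2/ACS minus vehicle/ACS between days. Days within each treatment were a choice made after seeing the data. P-values were adjusted by Benjamini-Hochberg within each comparison at 0.05. Where a group was not detected on any array, a fold, if given, is a lower bound against the higher of the probe's value and the lowest detected level of each array. It is a bound on group means and leaves out the spread between rats. A marker level is the mean log2 value of a list's kept genes. The number of arrays limits the precision, and the fits were tested on simulated data with known changes.

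All 8 receptor genes were described. Other pathway genes were named if past the threshold between treatments, up to 25 by lowest adjusted p, and for days up to 4 per list, with the 3 genes most correlated with each receptor gene. The receptor genes and the lists were chosen with earlier results of these data known. Alternatives were the authors' values, an offset of 50, arrays scaled to equal medians, other detection filters, quality weights, the compared groups alone, a replicate block, leaving out each array and, for treatments, an unequal-variance test standing in for the methods' unnamed statistic. Figures were drawn with Python 3.11.15 and matplotlib 3.10.9. RNA was chosen by the authors for quality and yield, and p-values measure the spread between these rats.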

Additional observations from a re-analysis of the deposited data

Results flagged for a closer look

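Among 36 combinations of receptor gene and group of 4 rats, 3 held an array far from the other 3 of its group by Dixon's criterion, which chance alone gives in about 1 of 20 groups. Oprl1 was 8.544 in replicate 3 of no sponge rats at 7 dps, where the others lay between 8.369 and 8.387. Gabrg1 was 6.135 in replicate 1 of rhBMP-2/ACS rats at 1 dps, a small distance from the 6.249 to 6.256 of a tight group. Gabbr1 was 8.589 in replicate 3 of rhBMP-2/ACS rats at 7 dps, against 8.873 to 8.928 in the others. That array also had the highest level of skeletal muscle markers in its group, at 7.20 against 5.87 to 5.95. The part of muscle RNA in the Gabbr1 value was not tested.

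The difference between rhBMP-2/ACS and vehicle/ACS itself changed from 3 to 7 dps for 2 of 51 pathway genes (3.92%, against 6.9% of all probes). For Gnai3 the change was -0.4218 (limma, adjusted p = 0.0151), and for Rgs9, which was not detected on any rhBMP-2/ACS array at 3 dps, it was 0.5354 (adjusted p = 0.0413). The Gnai3 change was lost without replicate 3 of rhBMP-2/ACS at 3 dps (adjusted p = 0.0855), and the Rgs9 change was lost in 9 of 14 fits that left out a single array. Rgs9 passed the detection filter only through vehicle/ACS at 3 dps and the groups of 7 dps, so that its call does not stand as support.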

How the results depend on the processing

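The differences of Gabrg1 between days passed under every alternative run, at 0.44 to 0.68 for 3 dps minus 1 dps, -1.82 to -0.86 for 7 dps minus 1 dps and -2.47 to -1.29 for 7 dps minus 3 dps, as did those of Oprm1 against 1 dps and of Oprl1 for 7 dps minus 3 dps. Because Oprm1 passed the detection filter only through the groups of 1 dps, where it is highest, its calls do not stand as support. Calls lost were Oprl1 for 3 dps minus 1 dps with equal medians (adjusted p = 0.213), Cnr1 for 3 dps minus 1 dps with the authors' values (adjusted p = 0.245), and Gabbr1 for 7 dps minus 1 dps with equal medians (-0.02, adjusted p = 0.86) and in 11 of 24 fits that left out an array. The cause was not tested. With each array left out in turn, the receptor genes called numbered 2 to 4 for 7 dps minus 1 dps and 2 to 3 for 7 dps minus 3 dps.

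Between treatments the receptor genes called at 3 dps were 1 with an offset of 50 (Gabrg1 in rhBMP-2/ACS minus vehicle/ACS, -0.46, adjusted p = 0.039), and 0 to 1 with an array left out, both against vehicle/ACS and, for Oprl1, against no sponge. Pathway genes called in rhBMP-2/ACS minus vehicle/ACS at 3 dps, 7 as reported, were 3 with quality weights, 4 with equal medians, 0 with the compared groups alone or the unequal-variance test, 0 at the methods' thresholds, and 0 to 7 with an array left out. In rhBMP-2/ACS minus no sponge they were, of 4 at 3 dps, 1 with weights, 0 alone, 2 with equal medians, 2 with no filter, 0 by the unequal-variance test and 0 at the methods' thresholds, and 0 to 6 with an array left out. Of 2 at 7 dps they were 1 with equal medians, 1 with no filter, 0 by that test, 1 at those thresholds and 1 to 3 with an array left out, and Rgs4 was lost in 7 of 8 such fits. In vehicle/ACS minus no sponge at 7 dps, 4 became 2 alone, 2 with equal medians, 0 by that test, 1 at those thresholds and 3 to 5 with an array left out (Rgs7 lost in 6 of 8), and 0 at 3 dps became 0 to 1. The change between days counted 2 from 3 to 7 dps, 1 with weights, 1 alone, 0 with equal medians, 1 with no filter and 0 to 3 with an array left out, and from 1 to 3 dps 0 to 1.

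With equal medians the all-probe median for 7 dps minus 1 dps was 0.104, against 0.0263 as reported, and Gnai3 and Rgs7 turned to 0.10 and 0.056 (both uncalled). Called probes were then higher in 89.4% rather than 56.7% for rhBMP-2/ACS minus vehicle/ACS at 3 dps, 79.4% rather than 55.8% and 96.7% rather than 71.4% for rhBMP-2/ACS minus no sponge at 3 and 7 dps, 91.3% rather than 61.1% for vehicle/ACS minus no sponge at 7 dps, and 64.2% rather than 51% for 3 dps minus 1 dps. Replicate numbers were shared by the groups, but the deviations of 33 same-numbered pairs correlated at -0.181 to 0.244, with 6 over 0.1, so that the numbers were not taken as pairs. The 3 pairs of replicate 3 at 3 dps were among these 6 (0.149 to 0.204), and replicate 3 had the highest fibroblast marker level in 8 of 9 groups and the highest macrophage marker level in 6. With a replicate block the receptor genes called were the same in number in every comparison, and Gabrg1 in rhBMP-2/ACS minus vehicle/ACS at 3 dps was -0.59 (adjusted p = 0.0705). A filter of detection in all arrays of a group left no value for Cnr1. Signal near background limits Oprm1, Cnr1 and Oprd1, and also Gabrg1 at 7 dps (median 5.12, detected on 9 of 12 arrays).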
